A study of Mus musculus with 16 samples.

Results

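The mouse liver genes described here are 9 glutathione transferase genes outside the alpha and mu classes. They are the theta-class genes Gstt1, Gstt2 and Gstt3, the pi-class genes Gstp1 and Gstp2, the kappa-class gene Gstk1, the omega-class gene Gsto1, the zeta-class gene Gstz1 and the microsomal gene Mgst1. They were chosen by name, with no measured value in the rule, from 24970 genes in the deposited count table. Each gene was represented by the RefSeq transcript entry with the highest mean count, and all 9 were among the 12913 genes with enough counts to be tested. Polyadenylated RNA was sequenced from livers of 4 groups with 4 libraries each, and the series asks how TCPOBOP acts in mice that carry the human receptors. TCPOBOP is a potent ligand that activates mouse CAR, the constitutive androstane receptor. The groups were humanized PXR-CAR-CYP3A4/3A7 mice given TCPOBOP, humanized mice given vehicle, wild-type C57BL/6 Ntac mice given TCPOBOP and wild-type mice given vehicle. TCPOBOP was given at 3 mg/kg in 2 administrations 24 h apart and livers were taken at 48 h, while vehicle mice received corn oil with 2% DMSO. The sources used here do not give age, sex, litter, batch or the promoter that drives the human genes. The human transcripts were not analysed here, because the table lists mouse transcripts. No label ties each library to a separate animal, so the p-values below measure the spread between these libraries.

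Glutathione transferases couple the tripeptide glutathione to electrophilic compounds, which are then exported from the hepatocyte and processed to mercapturates. The cytosolic classes differ in substrate. Theta enzymes act on small halogenated compounds and sulfate esters, and pi enzymes act on reactive aldehydes such as acrolein. The omega enzyme reduces dehydroascorbate and methylated arsenic, and the zeta enzyme is the maleylacetoacetate isomerase of tyrosine breakdown. The kappa enzyme is structurally distinct and resides in mitochondria and peroxisomes. Mgst1 is a membrane protein of the endoplasmic reticulum and outer mitochondrial membrane that also reduces lipid hydroperoxides. CAR, a nuclear receptor of hepatocytes, is best known for inducing Cyp2b genes, and several transferase genes are among its known targets in mouse liver.

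Promoter windows are shown for both pairs of adjacent genes on which the results turn, Gstt3 with Gstt1 on chromosome 10 and Gstp1 with Gstp2 on chromosome 19. Each window runs from 250 bases before to 50 bases after a start site, 5′ to 3′ on the minus strand of GRCm38.p6, as given by RefSeq. The Gstt3 window lies at chr10:75781373-75781672, the Gstt1 window at chr10:75797682-75797981, the Gstp1 window at chr19:4037863-4038162 and the Gstp2 window at chr19:4042172-4042471. Capitals mark matches to the AP-1 motif TGANTCA, where N is any base.
Gstt3: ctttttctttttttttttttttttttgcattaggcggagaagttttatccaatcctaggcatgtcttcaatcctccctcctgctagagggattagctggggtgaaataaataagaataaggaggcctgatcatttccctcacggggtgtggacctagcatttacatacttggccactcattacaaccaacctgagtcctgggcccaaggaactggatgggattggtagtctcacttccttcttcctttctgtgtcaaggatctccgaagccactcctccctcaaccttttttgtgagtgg
Gstt1: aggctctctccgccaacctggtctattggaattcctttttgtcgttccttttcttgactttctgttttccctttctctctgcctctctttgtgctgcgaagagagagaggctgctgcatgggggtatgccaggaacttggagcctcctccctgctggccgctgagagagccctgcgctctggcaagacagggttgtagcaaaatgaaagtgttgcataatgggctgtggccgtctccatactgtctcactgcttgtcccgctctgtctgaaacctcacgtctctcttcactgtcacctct
Gstp1: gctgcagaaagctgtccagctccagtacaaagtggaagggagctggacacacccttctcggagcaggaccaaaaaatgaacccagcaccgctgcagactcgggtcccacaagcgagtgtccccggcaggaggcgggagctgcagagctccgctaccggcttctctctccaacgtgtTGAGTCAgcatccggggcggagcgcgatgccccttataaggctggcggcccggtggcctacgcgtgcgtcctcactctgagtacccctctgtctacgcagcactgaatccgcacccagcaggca
Gstp2: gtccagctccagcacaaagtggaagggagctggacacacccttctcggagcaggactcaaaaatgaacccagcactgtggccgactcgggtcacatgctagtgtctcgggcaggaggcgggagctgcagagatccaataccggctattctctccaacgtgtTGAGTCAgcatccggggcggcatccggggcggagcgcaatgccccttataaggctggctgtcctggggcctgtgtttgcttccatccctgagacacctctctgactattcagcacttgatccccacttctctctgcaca

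A set of 3 motifs was searched on both strands of the windows of 8 of the 9 genes, all but Gstt2, namely TGANTCA, the antioxidant response element core TGACNNNGC and the DR4 pair of nuclear receptor half-sites. Among all 32851 mouse promoter windows of this length, 7.81% held TGANTCA, 12.4% held TGACNNNGC and 0.0822% held a DR4 pair. The Gstp1 window held TGAGTCA from base -74 to base -68 and the Gstp2 window held it from base -89 to base -83, with the start site as base 0. That motif reads the same at its outer bases on both strands, so each site was found on both. The aligned Gstp1 and Gstp2 windows were identical at 241 of 282 bases (85.5%). Neither of the theta windows shown held any of these motifs, nor did the windows of Gstk1, Gsto1 and Gstz1. A window of Mgst1 held TGACNNNGC on the minus strand from base -56 to base -48. These matches describe letters within 300 bases and no binding was measured.

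The libraries held 14019983 to 16755802 counts in humanized TCPOBOP, 12612610 to 16904182 in humanized vehicle, 30228724 to 37998473 in wild-type TCPOBOP and 11827994 to 19483951 in wild-type vehicle livers, so greater depth coincided with 1 group. Mouse Nr1i3, which encodes CAR, averaged 2.20 CPM (counts scaled by library total and TMM factor, the unit used throughout) in humanized vehicle and 100.3 CPM in wild-type vehicle livers, and mouse Nr1i2, which encodes PXR, averaged 19.0 and 136.5 CPM in the same groups. Hepatocyte markers were high in all libraries, with 7 genes summing to 44834 to 71009 CPM in humanized TCPOBOP, 51527 to 61979 in humanized vehicle, 25678 to 39976 in wild-type TCPOBOP and 58272 to 96024 in wild-type vehicle livers. In this list Alb fell by 1.56 and Ttr by 0.72 on the log2 scale under TCPOBOP in wild-type livers (adjusted p = 0.000271 and 0.0378, edgeR). In whole liver, fewer cells of a type and less RNA per cell cannot be told apart. A total of 2 libraries, humanized TCPOBOP replicate 1 and wild-type vehicle replicate 2, stood apart, with median correlations of 0.913 and 0.915 with their own groups, against 0.953 to 0.990 for the other libraries. Where leaving them out changes a call of one of the 9 genes, the value is given beside it.

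The 9 genes covered a wide range of levels when set against transcript length. In wild-type vehicle livers the mean level per kilobase was 1945 CPM for Mgst1, 978 for Gstp1, 323 for Gstz1 and 182 for Gstt1. Gstk1 stood at 70.6, Gsto1 at 49.5, Gstt3 at 38.5, Gstt2 at 34.0 and Gstp2 at 4.10 CPM per kilobase. Libraries of Gsto1 and Gstt3, and of Gstt3 and Gstt2, overlapped in that order, while all other neighbours in it were separate. Mgst1 came before Gstp1 at the head of the order in all 4 groups, and Gstp2 came last. In wild-type TCPOBOP livers Gstt1 followed Gstp1 at 705 CPM per kilobase, and Gstt3 came next at 306, ahead of Gstz1 at 288, whose libraries overlapped with those of Gstt3. In humanized livers Gstt1 stood behind Gstz1, with 146 CPM per kilobase under TCPOBOP and 148 under vehicle, and its libraries overlapped with those of Gstk1 in both groups.

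**Figure D1:**
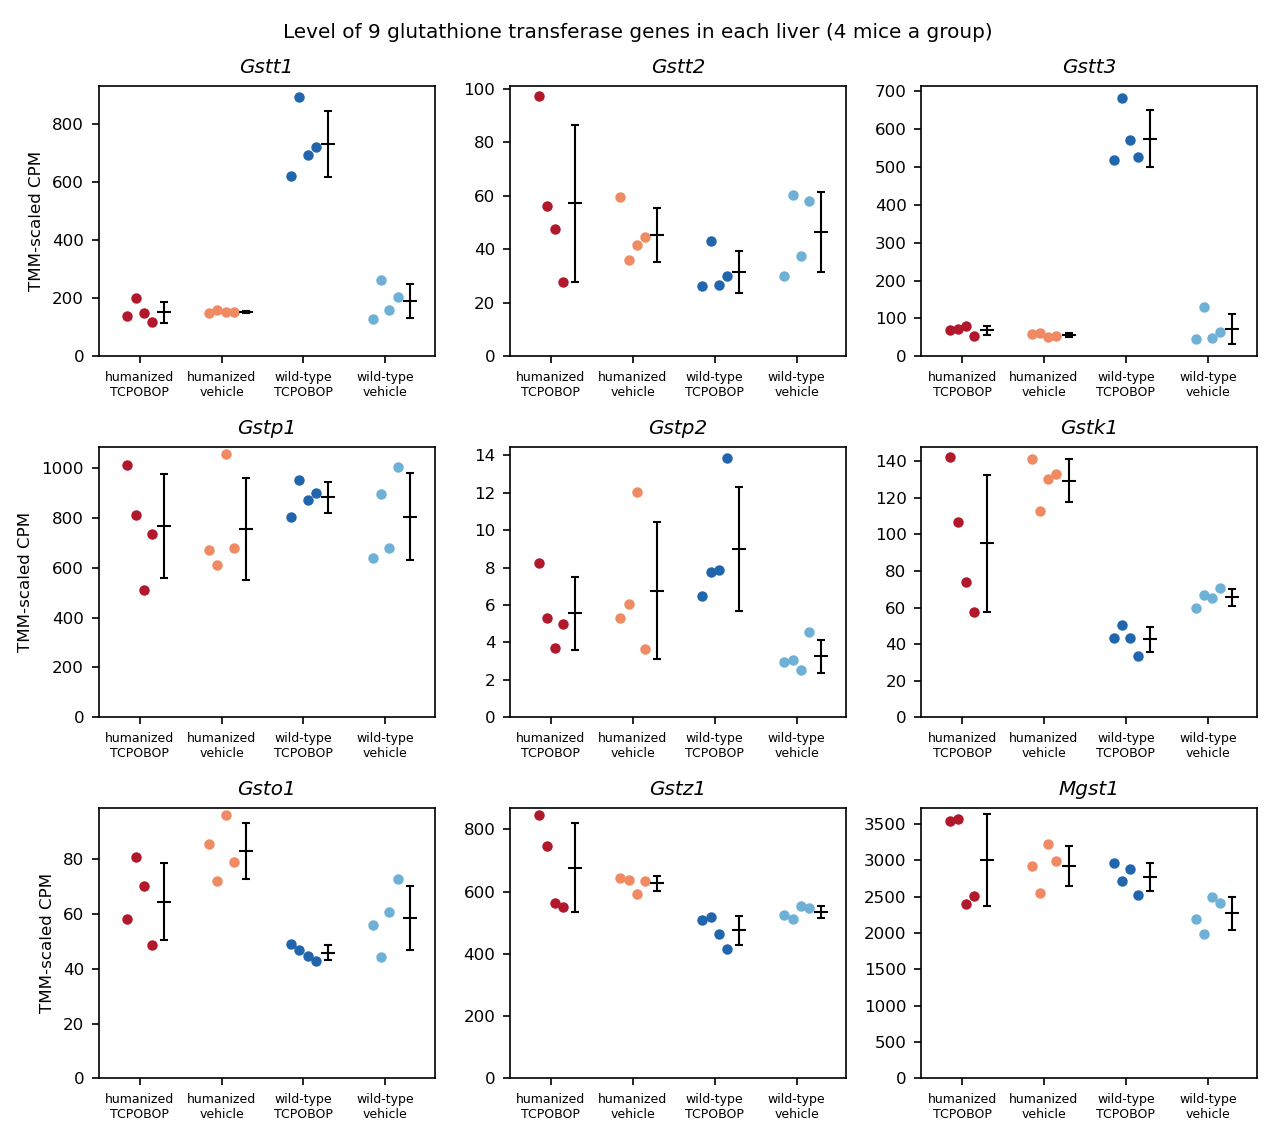
TMM-scaled CPM (y axis, linear, from 0) of each of the 9 genes in each library (points) of humanized TCPOBOP, humanized vehicle, wild-type TCPOBOP and wild-type vehicle livers, with the mean and SD of 4 libraries as bars. Gstt1 and Gstt3 are far above all other groups in wild-type TCPOBOP livers, and Gstk1 is higher in humanized vehicle than in wild-type vehicle livers.

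Under TCPOBOP in wild-type livers Gstt1, Gstt3 and Gstp2 rose, and none of the 9 genes fell. At an unadjusted p under 0.05, 1 was lower, Gstk1, which DESeq2 called, where 25.1% of all genes were under that p in either direction. Without both libraries that stood apart Gstk1 and Gsto1 were called as lower, and 3046 genes in all, against 1691. The 3 of 9 that rose compare with 8.1% of all 12913 genes tested that rose, and 13.1% that changed in either direction, or 1046 that rose and 645 that fell (edgeR quasi-likelihood F test, two-sided, Benjamini-Hochberg adjusted p under 0.05). With library totals alone in place of TMM, 1280 genes rose and 478 fell. The median log2 change of the 9 genes was 0.13, against -0.02 over all genes tested. Groups did not overlap for 5 of the 9 genes, Gstt1, Gstt3, Gstp2, Gstk1 and Mgst1, against 20.9% of all genes. The lower sum of hepatocyte markers in wild-type TCPOBOP livers moved with this comparison, and its part in these changes was not tested.

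In humanized livers none of the 9 genes was called, where 2.52% of all genes were, 1.32% higher and 1.19% lower. This background depended on single libraries. The genes called numbered 325 in all, 74 without humanized vehicle replicate 4 and 960 without humanized TCPOBOP replicate 1. Without humanized TCPOBOP replicate 1, and without both libraries that stood apart, 1 of the 9 genes was called, Gstk1. With library totals alone 72 genes rose and 215 fell, against 171 and 154. None of the 9 genes had an unadjusted p under 0.05 in humanized livers, against 17.9% of all genes, and DESeq2 called none of them. For none were the groups separate, against 9.95% of all genes. The median log2 change of the 9 was 0.03 in humanized livers, against 0.02 over all genes tested. The TCPOBOP effect was lower in humanized than in wild-type livers for 3 of the 9 genes, namely Gstt1, Gstt3 and Gstp2, against 3.98% of all genes in that direction, 3.48% in the other and 7.46% in either. Of these the call of Gstp2 was lost in 13 of 24 alternatives. With library totals alone 295 genes were higher and 928 lower in this difference, against 449 and 514. Under vehicle 1 gene, Gstk1, was higher in humanized than in wild-type livers and none was lower, against 7.11% of all genes higher, 8.95% lower and 16.1% called in either direction. At an unadjusted p under 0.05, as with DESeq2, 3 were higher, Gstk1, Gstp2 and Gsto1, and none was lower, where 34.4% of all genes were under that p. Without both libraries that stood apart 4505 genes were called under vehicle, against 2074. With library totals alone 1160 were higher and 757 lower, against 918 and 1156. These comparisons share their vehicle groups, so their results are not independent of each other.

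**Figure D2:**
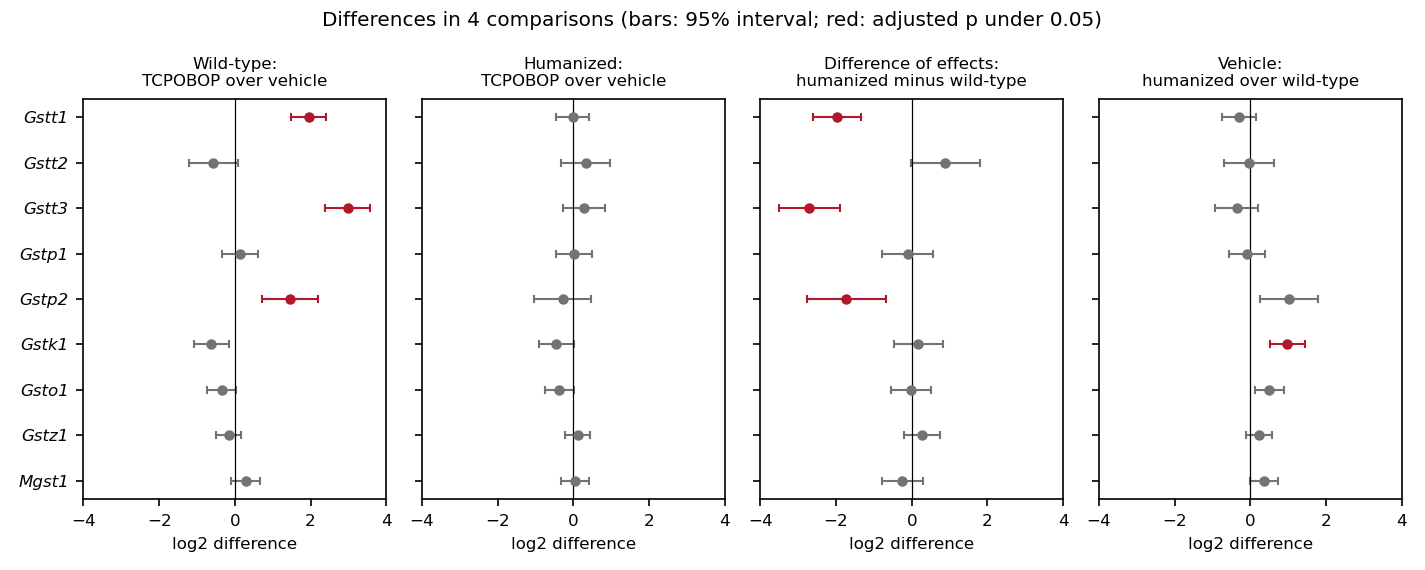
Log2 differences (x axis) of the 9 genes (rows) in the 4 comparisons, with 95% intervals as bars and genes past an adjusted p of 0.05 in red. Gstt1, Gstt3 and Gstp2 are right of 0 in the wild-type panel and left of 0 in the panel of humanized minus wild-type effects, and no gene is red in the humanized panel.

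Gstt3 encodes a theta-class enzyme (NM_133994, mm10 chr10:75774117-75781422) and had the largest change of the 9 genes. It was at 518, 681, 572 and 527 CPM in wild-type TCPOBOP livers, against 45.5, 132, 47.1 and 65.5 CPM in wild-type vehicle livers. Every TCPOBOP library lay above every vehicle library, and the highest vehicle value came from replicate 2, the library that stood apart. Gstt3 was 7.93-fold higher with TCPOBOP, a log2 change of 2.99 ± 0.28 (SE, n = 4 libraries per group, adjusted p = 1.34e-06, edgeR). In humanized livers it was at 69.8, 71.2, 80.7 and 52.9 CPM with TCPOBOP, against 59.7, 61.7, 50.3 and 53.7 CPM with vehicle. The humanized groups overlapped and the log2 difference was 0.28, with a 95% interval from -0.275 to 0.844 (adjusted p = 0.629, edgeR). The TCPOBOP effect in humanized minus that in wild-type livers was -2.70 ± 0.38 on the log2 scale (SE, adjusted p = 0.000375, edgeR). With all libraries thinned to the depth of the shallowest, the wild-type change was 2.96.

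Gstt1 lies beside Gstt3 and encodes the theta enzyme known for conjugating dihalomethanes (NM_008185, chr10:75783813-75798584). It was at 621, 892, 692 and 721 CPM in wild-type TCPOBOP livers, against 128, 264, 160 and 204 CPM in wild-type vehicle livers. Again no library of these groups overlapped, and replicate 2 was the highest of the vehicle libraries. The rise was 3.87-fold, a log2 change of 1.95 ± 0.22 (SE, n = 4 per group, adjusted p = 8.79e-06, edgeR). With all libraries thinned to the shallowest depth it was 1.93. Humanized livers had 139, 201, 150 and 117 CPM of Gstt1 with TCPOBOP, against 151, 158, 151 and 154 CPM with vehicle. The 4 vehicle libraries were close together at 153.5 ± 3.43 CPM (SD), and the TCPOBOP libraries lay on both sides of them at 152 ± 35.5 CPM. The log2 difference in humanized livers was -0.02, with a 95% interval from -0.465 to 0.428 (adjusted p = 0.981, edgeR), and its sign changed with the scaling, being 0.01 with RLE factors. The humanized minus wild-type difference of effects was -1.97 ± 0.30 (SE, adjusted p = 0.00067, edgeR). Under vehicle neither theta gene was called between the strains, with log2 differences of -0.30 for Gstt1 and -0.36 for Gstt3 in humanized over wild-type livers (adjusted p = 0.321 and 0.34, edgeR). The value of Gstt3 was 0.09 without wild-type vehicle replicate 2, so its sign rested on that library.

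Gstt2, a theta gene whose human and rat counterparts act on sulfate esters (NM_010361, chr10:75831842-75837419), did not pass the test in any comparison. It was at 26.4, 43.0, 26.8 and 30.05 CPM in wild-type TCPOBOP livers, against 30.08, 60.4, 37.6 and 58.2 CPM in wild-type vehicle livers. All but 1 of the TCPOBOP libraries lay below the lowest vehicle library, and the log2 difference was -0.56, with a 95% interval from -1.22 to 0.0878 (adjusted p = 0.278, edgeR). In humanized livers it was at 97.5, 56.1, 47.5 and 27.9 CPM with TCPOBOP, against 59.7, 36.1, 41.8 and 44.7 CPM with vehicle. The TCPOBOP libraries spread over a wider range than the vehicle libraries, and their highest value came from replicate 1, which stood apart. The log2 difference of 0.33 (adjusted p = 0.636, edgeR) was -0.03 without that library.

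Gstt1 and Gstt3 also changed their place in the summed level of the 9 genes. Per kilobase, this sum was 4304 ± 924 CPM in humanized TCPOBOP, 4227 ± 463 in humanized vehicle, 4862 ± 230 in wild-type TCPOBOP and 3625 ± 316 in wild-type vehicle livers (SD, n = 4 each). The theta pair held 3.27 to 5.54% of the sum in humanized TCPOBOP, 3.57 to 4.99% in humanized vehicle, 18.2 to 23.7% in wild-type TCPOBOP and 4.54 to 9.06% in wild-type vehicle livers. The share in wild-type TCPOBOP livers was above that in every other library. The level of Gstt3 relative to that of Gstt1, per length, was 0.403 to 0.460 in wild-type TCPOBOP livers and 0.162 to 0.275 in wild-type vehicle livers. In humanized livers that ratio was 0.195 to 0.298 with TCPOBOP and 0.183 to 0.219 with vehicle. The 2 genes thus kept a lower ratio in the 12 other libraries than in the wild-type TCPOBOP group. Of the 50-base windows of the Gstt3 transcript, 26.0% also occur in Gm20441, an annotated transcript that overlaps Gstt3 at the same locus, while Gstt1 and Gstt2 share none with another gene. The Gstt1 and Gstt3 transcripts were 69.5% identical.

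**Figure D3:**
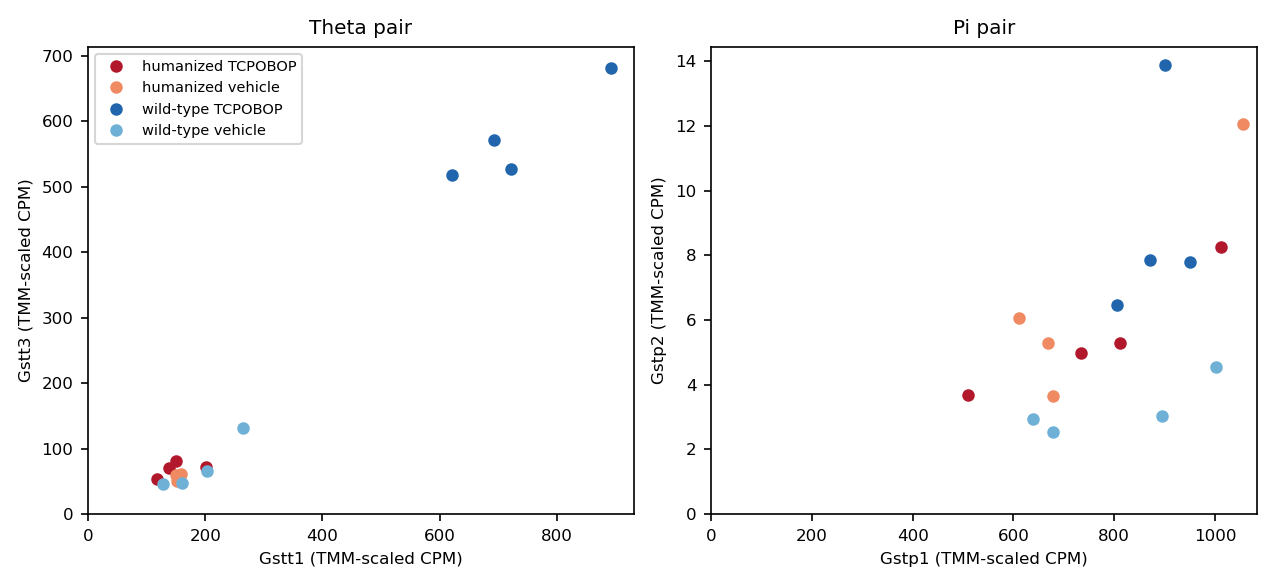
TMM-scaled CPM of Gstt3 against Gstt1 (left) and of Gstp2 against Gstp1 (right), 1 point per library, coloured by group. The 4 wild-type TCPOBOP libraries lie apart in the theta panel, whereas in the pi panel the wild-type vehicle libraries have the lowest Gstp2 for their Gstp1 level.

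Gstp1 is the major pi-class gene (NM_013541, chr19:4035411-4037912) and the second most abundant of the 9. It was at 805, 950, 870 and 900 CPM in wild-type TCPOBOP livers, against 638, 895, 678 and 1002 CPM in wild-type vehicle livers. The groups overlapped, and the log2 difference was 0.13 with a 95% interval from -0.339 to 0.607 (adjusted p = 0.789, edgeR). Humanized livers had 1011, 812, 510 and 734 CPM with TCPOBOP, against 669, 611, 1056 and 678 CPM with vehicle. These groups overlapped as well, and the log2 difference of 0.03 had a 95% interval from -0.448 to 0.499 (adjusted p = 0.974, edgeR). The sign of this difference changed with the scaling, being -0.13 with library totals alone. The vehicle library at 1056 CPM was far from the other 3.

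Gstp2, its close copy (NM_181796, chr19:4040288-4042221), was rare, with 20 to 50 counts per wild-type vehicle library and 118 to 288 per wild-type TCPOBOP library. It was at 6.46, 7.78, 7.86 and 13.9 CPM in wild-type TCPOBOP livers, against 2.94, 3.05, 2.54 and 4.55 CPM in wild-type vehicle livers. The groups were separate and the log2 change was 1.45 ± 0.35, a 2.74-fold rise (SE, n = 4 per group, adjusted p = 0.00953, edgeR). With all libraries thinned to the shallowest depth the rise was 1.30 on the log2 scale (adjusted p = 0.0296, edgeR). Over all alternatives its adjusted p ran from 0.00118 to 0.0499. In humanized livers Gstp2 was at 8.27, 5.30, 3.69 and 4.98 CPM with TCPOBOP, against 5.29, 6.05, 12.1 and 3.65 CPM with vehicle, and the groups overlapped. That log2 difference was -0.28, with a 95% interval from -1.03 to 0.468 (adjusted p = 0.739, edgeR). The difference of effects, humanized minus wild-type, was -1.73 ± 0.50 (SE, adjusted p = 0.0414, edgeR). This call was lost in 13 of 24 alternatives, among them thinning to the shallowest depth (adjusted p = 0.0776) and the removal of any 1 of 11 libraries, and over all alternatives its adjusted p ran from 0.0147 to 0.109.

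The 2 pi genes share sequence. The Gstp1 and Gstp2 transcripts were 95.7% identical over 786 aligned bases, and 62.3% of the 50-base windows of Gstp1 also occur in Gstp2. Of the Gstp2 windows 72.6% occur in other genes, so its values are uncertain where reads of either gene could be counted for the other. Gstp2 counts were 0.653 to 0.818% of Gstp1 counts in humanized TCPOBOP, 0.539 to 1.14% in humanized vehicle, 0.803 to 1.54% in wild-type TCPOBOP and 0.340 to 0.460% in wild-type vehicle livers. The proportion was thus lower in each wild-type vehicle library than in any library of the other groups. Under vehicle, Gstp2 was 2.04-fold higher in humanized than in wild-type livers, which missed the threshold (log2 1.03 ± 0.36 SE, adjusted p = 0.0606, edgeR). It passed with DESeq2 (adjusted p = 0.0371) and without humanized TCPOBOP replicate 1 (0.0415), and over all alternatives its adjusted p ran from 0.0371 to 0.247.

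Gstk1, the kappa gene (NM_029555, chr6:42245935-42250441), was the one gene of the 9 that edgeR called between the strains under vehicle with all libraries. It was at 141, 113, 130 and 133 CPM in humanized vehicle livers, against 59.6, 66.98, 65.2 and 70.9 CPM in wild-type vehicle livers. Every humanized library was above every wild-type library. The difference was 1.97-fold, or 0.98 ± 0.22 on the log2 scale (SE, n = 4 per group, adjusted p = 0.0116, edgeR), and over all alternatives its adjusted p ran from 0.000982 to 0.0402. Markers of liver cell types moved with this comparison, in which 7.11% of all genes tested were higher and 8.95% lower. Of 8 Kupffer cell and macrophage markers 7 were lower in humanized livers, with a summed level of 189 to 346.5 CPM in humanized vehicle and 448 to 979 CPM in wild-type vehicle livers. Of 8 sinusoidal endothelial markers 3 were lower, with a sum of 189 to 225 CPM in humanized vehicle and 345 to 639.5 CPM in wild-type vehicle livers. Of 4 tested erythroid markers 3 were lower, with a sum of 100.4 to 124 CPM in humanized vehicle and 133.5 to 208 CPM in wild-type vehicle livers. Of 8 stellate cell markers 1 was higher and 2 were lower, and of 5 tested cholangiocyte markers 1 was higher. Among 7 tested hepatocyte markers 1 was lower, Alb, with a log2 difference of -0.78 (adjusted p = 0.0386, edgeR). Neither of 2 tested neutrophil markers was called, and both were higher at an unadjusted p under 0.05. The part of these markers in the Gstk1 difference was not tested.

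With TCPOBOP, Gstk1 was at 43.1, 50.3, 43.6 and 33.6 CPM in wild-type livers, all below the vehicle libraries above. The log2 difference of -0.62 ± 0.22 (SE) missed the threshold (adjusted p = 0.0722, edgeR). It passed with DESeq2 (adjusted p = 0.0335), with only the 2 groups in the fit (0.0173) and without humanized TCPOBOP replicate 1 (0.018) or replicate 4 (0.0325) or both libraries that stood apart (0.0195), and over all alternatives its adjusted p ran from 0.0173 to 0.229. In humanized TCPOBOP livers the values were 142, 107, 74.2 and 57.4 CPM, and the highest again came from replicate 1. Except for that library they lay below all 4 humanized vehicle libraries. The log2 difference of -0.44 (adjusted p = 0.301, edgeR) was -0.68 without that library (adjusted p = 0.0388) and -0.69 without both that stood apart (0.021), and over all alternatives its adjusted p ran from 0.021 to 0.593. The difference between the strains' effects was 0.18, with a 95% interval from -0.471 to 0.827 (adjusted p = 0.809, edgeR).

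Gsto1, the omega gene (NM_010362, chr19:47854973-47864790), was not called by edgeR in any comparison with all libraries. It was at 49.2, 47.0, 44.6 and 42.8 CPM in wild-type TCPOBOP livers, against 56.1, 44.4, 60.7 and 72.8 CPM in wild-type vehicle livers, with a log2 difference of -0.35 (adjusted p = 0.234, edgeR). In humanized livers it was at 58.3, 80.9, 70.3 and 48.8 CPM with TCPOBOP, against 85.5, 72.1, 96.2 and 79.0 CPM with vehicle, with a log2 difference of -0.36 (adjusted p = 0.296, edgeR). Both pairs of groups overlapped. Without both libraries that stood apart the wild-type difference was -0.47 and passed the threshold (adjusted p = 0.0421), and over all alternatives its adjusted p ran from 0.0421 to 0.508. Under vehicle it was 1.42-fold higher in humanized than in wild-type livers, or 0.51 ± 0.18 on the log2 scale (SE, adjusted p = 0.0588, edgeR), and 3 of 4 humanized libraries were above all wild-type libraries. That difference passed the threshold with DESeq2 (adjusted p = 0.046) and without humanized TCPOBOP replicate 1 (0.0422), humanized TCPOBOP replicate 4 (0.0448) or wild-type vehicle replicate 4 (0.0413), and over all alternatives its adjusted p ran from 0.0414 to 0.161.

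Gstz1, the tyrosine pathway gene (NM_010363, chr12:87147161-87164723), was at 508, 519, 463 and 416 CPM in wild-type TCPOBOP livers, against 524, 512, 555 and 549 CPM in wild-type vehicle livers. In humanized livers it was at 847, 747, 564 and 551 CPM with TCPOBOP, against 644, 636, 592 and 633 CPM with vehicle. The vehicle libraries of each strain lay within a narrow range, and all 4 humanized ones were above all wild-type ones. Its log2 differences were 0.11 under TCPOBOP in humanized livers, -0.17 under TCPOBOP in wild-type livers and 0.23 for humanized over wild-type livers under vehicle, with adjusted p of 0.777, 0.591 and 0.322 (edgeR). Of 5 genes of tyrosine catabolism besides Gstz1, none was called under TCPOBOP in either strain. Under vehicle 2 of the 5 were higher in humanized livers, namely Hgd, the homogentisate dioxygenase, by 0.62 (adjusted p = 0.0166), and Hpd, the hydroxyphenylpyruvate dioxygenase, by 0.61 on the log2 scale (adjusted p = 0.0372, edgeR).

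Mgst1 was the most abundant of the 9 genes (NM_001361307, chr6:138140527-138156755). It was at 2957, 2711, 2876 and 2521 CPM in wild-type TCPOBOP livers, against 2195, 1981, 2494 and 2407 CPM in wild-type vehicle livers. The groups were separate by a small gap, and the log2 difference of 0.29 had a 95% interval from -0.0907 to 0.662 (adjusted p = 0.357, edgeR). In humanized livers it was at 3536, 3566, 2394 and 2514 CPM with TCPOBOP, against 2924, 2552, 3219 and 2986 CPM with vehicle, with a log2 difference of 0.04 (adjusted p = 0.943, edgeR). The TCPOBOP libraries of humanized mice fell into a higher and a lower pair, above and below all 4 vehicle libraries. The higher pair was replicates 1 and 2, which were also above replicates 3 and 4 for Gstk1, Gstz1, Gstp1, Gstt2 and Gstp2. For Gstt1, Gstt3 and Gsto1 these pairs were not separate. The TMM factors were 0.791 and 0.90 for replicates 1 and 2, against 1.021 and 1.035 for replicates 3 and 4. The part of this split in the humanized comparisons was not tested. All 4 humanized vehicle libraries were above all wild-type vehicle libraries, with a log2 difference of 0.36 that missed the threshold (adjusted p = 0.158, edgeR). For humanized over wild-type vehicle livers the groups were separate for Gstk1, Gstz1 and Mgst1, 3 of 9 genes, against 26.4% of all genes.

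Genes near the theta and pi clusters were set beside the members. Over all genes tested, 13.1% were called under TCPOBOP in wild-type livers, 2.52% in humanized livers and 16.1% between the strains under vehicle. Within 100 kb of the theta genes 6 other genes were tested, Cabin1, Ddt, Mif, Derl3, Smarcb1 and Chchd10. None was called under TCPOBOP in either strain, with log2 differences from -0.42 to -0.01 in humanized livers and from -0.90 to 0.48 in wild-type livers. Ddt, which encodes D-dopachrome tautomerase and lies next to Gstt3, had a log2 difference of 0.04 in wild-type livers, beside the 2.99 of Gstt3. Under vehicle 2 of the 6 were higher in humanized than in wild-type livers, Ddt by 0.61 (adjusted p = 0.0375) and Chchd10 by 0.88 on the log2 scale (adjusted p = 0.0188, edgeR). Within 100 kb of the pi genes, 12 genes other than pi genes were tested and none was called in wild-type livers, with log2 differences from -0.84 to 0.35. In humanized livers 1 of the 12 rose, Acy3, which encodes an aminoacylase that acts on mercapturates (log2 change 0.63, adjusted p = 0.0458, edgeR). Under vehicle Acy3 was lower in humanized than in wild-type livers, with a log2 difference of -0.52 (adjusted p = 0.0358, edgeR). Gstp3, a further pi gene, was not called in any comparison. Gstt4 had 1 count in all 16 libraries together and was not tested, and neither was Gsto2.

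**Figure D4:**
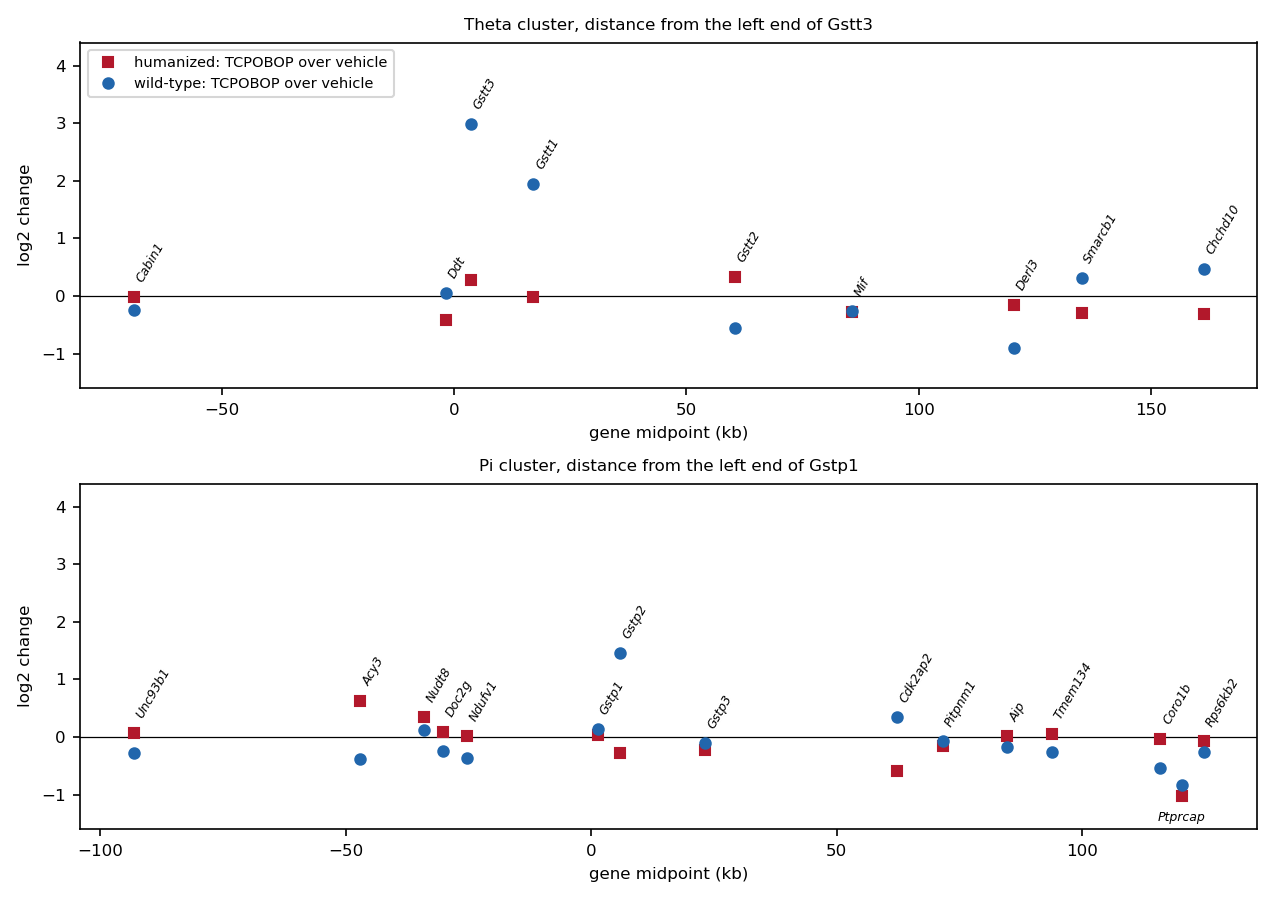
Log2 change under TCPOBOP (y axis) of tested genes at the theta (top) and pi (bottom) clusters, plotted by distance of the gene midpoint in kb, for humanized (squares) and wild-type livers (circles). Gstt3, Gstt1 and Gstp2 stand above their neighbours in wild-type livers, and the humanized values of all 3 lie between -0.28 and 0.28.

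Other steps of glutathione metabolism differed in direction under TCPOBOP in wild-type livers. The counts of called genes here and in the following paragraphs stand against the shares of all genes tested. Of these 8.1% rose and 4.99% fell in wild-type livers, and 1.32% rose and 1.19% fell in humanized livers. Under vehicle 7.11% were higher and 8.95% lower in humanized than in wild-type livers. Of 11 tested alpha and mu genes 8 rose and none fell, with a median log2 change of 1.90, although members of these classes share sequence and single values are less certain. Gstm3, a mu-class gene, was at 4485 CPM with TCPOBOP and 43.0 CPM with vehicle, a log2 change of 6.71 (adjusted p = 2.06e-10, edgeR). In humanized livers 1 of the 11 was called, Gsta2, which fell by 1.74 on the log2 scale (adjusted p = 0.0445, edgeR). Under vehicle 7 of the 11 were higher in humanized than in wild-type livers and none was lower. Gsta2 was among them, by 1.90 on the log2 scale (adjusted p = 0.0123, edgeR). Of 6 further tested genes of the theta, pi, omega and microsomal families 2 rose in wild-type livers, the prostaglandin E synthase gene Ptges (log2 change 3.54) and Gstcd (1.02), and Mgst3 fell by 1.29. None of these 6 was called in humanized livers by edgeR.

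Of 8 tested genes of glutathione synthesis and cysteine supply, 3 fell and none rose in wild-type livers. They were Mat1a, which makes S-adenosylmethionine, Cbs, the entry to transsulfuration, and Cdo1, the cysteine dioxygenase, with log2 changes of -1.18, -1.15 and -1.10 (adjusted p = 0.00116, 0.00865 and 0.000864, edgeR). In humanized livers 1 of the 8 fell, the cystathionine lyase gene Cth (log2 change -0.82, adjusted p = 0.0398, edgeR). Under vehicle Cth was higher in humanized than in wild-type livers, by 1.13 on the log2 scale (adjusted p = 0.00336, edgeR). It averaged 868 CPM in humanized vehicle, 492 in humanized TCPOBOP and 395.5 in wild-type vehicle livers. Of 13 glutathione redox genes 3 rose in wild-type livers and none was called in humanized livers. The glutathione reductase gene Gsr rose by 1.05 on the log2 scale in wild-type livers (adjusted p = 0.000103, edgeR), and its effect in humanized minus that in wild-type livers was -1.22 (adjusted p = 0.00176, edgeR). Among 11 genes of glutathione breakdown and mercapturate steps none rose and Oplah, the 5-oxoprolinase gene, fell in wild-type livers (log2 change -0.62, adjusted p = 0.0357, edgeR), while Acy3 rose in humanized livers as given above. The wild-type counts of this list were near the shares of all genes, so they show no direction for the list.

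Of 7 conjugate efflux pumps 3 rose in wild-type livers, Abcc4, Abcc3 and Abcc2, with log2 changes of 3.05, 1.21 and 1.04. In humanized livers none of these pumps rose and Abcc5 fell by 0.94 on the log2 scale (adjusted p = 0.0399, edgeR). Under vehicle Abcc5 was higher in humanized than in wild-type livers, by 0.72 on the log2 scale (adjusted p = 0.0386, edgeR). Of 10 tested NRF2 marker genes 4 rose in wild-type livers, including the sulfiredoxin gene Srxn1 (log2 change 2.70, adjusted p = 2.5e-06, edgeR), and none was called in humanized livers. Of 9 CAR marker genes 2 rose and none fell in humanized livers, and 6 rose and 1 fell in wild-type livers. This list includes Cyp3a11 and the mouse receptor genes Nr1i3 and Nr1i2, which were low in humanized livers. Cyp3a11 averaged 0.553 CPM with TCPOBOP and 0.56 CPM with vehicle in humanized livers, against 15940 and 2984 CPM in wild-type livers. The counts of the strains thus do not rest on genes expressed alike. Cyp2b10, the standard CAR marker, rose in both strains, by 2.59 on the log2 scale in humanized livers and by 6.05 in wild-type livers (adjusted p = 0.00434 and 2.44e-07, edgeR). It averaged 105.1 CPM with TCPOBOP and 17.4 CPM with vehicle in humanized livers, against 3200 and 48.2 CPM in wild-type livers. Under vehicle its log2 difference, humanized over wild-type, was -1.47 (adjusted p = 0.0253, edgeR). Its rise in humanized livers stands beside the log2 values of -0.02 for Gstt1, 0.28 for Gstt3 and -0.28 for Gstp2 in the same libraries. At an unadjusted p under 0.05 in humanized livers, the counts of genes higher and lower were 0 and 3 for the alpha and mu list, 1 and 2 for the further families, 0 and 2 for synthesis, 0 and 1 for redox, 1 and 0 for mercapturate steps, 2 and 1 for efflux, 0 and 2 for tyrosine catabolism and 0 and 2 for NRF2 markers, where 17.9% of all genes were under that p. In wild-type livers, where 25.1% were, they were 10 and 0, 2 and 1, 0 and 3, 5 and 1, 0 and 3, 3 and 0, 0 and 1 and 6 and 0 for the same lists in the same order. For the 9 CAR markers, with Cyp3a11 and the receptor genes among them, these counts were 4 and 0 in humanized livers and 6 and 1 in wild-type livers.

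Over the 16 libraries, the gene whose pattern was most like that of Gstt1 was Gstt3 (Pearson r = 0.981 on log2 CPM). For Gstt3 the order was the carboxylesterase gene Ces2a (r = 0.986), Gstt1 and the mitotic gene Hmmr (r = 0.977). The nearest to Gstt1 after Gstt3 was Knstrn, a mitotic spindle gene, with r = 0.974. Ces2a averaged 6421 CPM in wild-type TCPOBOP and 604 CPM in wild-type vehicle livers. Gstk1 was most like the acyl-CoA thioesterase gene Acot13 (r = 0.987), followed by Hgd (r = 0.977) and Iah1 (r = 0.971). For Gstp1 the highest r was 0.817, with Preb among its nearest genes, and for Gstp2 it was 0.871, with the proteasome gene Psmc2. The highest r was 0.905 for Gstt2, 0.934 for Gsto1, 0.953 for Gstz1 and 0.919 for Mgst1. All libraries of a group share treatment and strain, so these values describe likeness over 4 groups as much as over 16 libraries.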

How the data were processed

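Polyadenylated liver RNA was sequenced, per the labels' protocols, from Trizol extracts with a NEBNext library kit. The submitters' processing notes name STAR, DESeq2 and mm10. The sources used here do not give the counting program, annotation release, strandedness or handling of shared reads. Raw counts were deposited for 40458 RefSeq accessions. Of the counts of 20 or more, 74.9% were even, and halving whole numbers with ties rounded to even gives 75%. The values may thus be halved counts, and they were used as deposited. Symbols came from RefSeq for 40219 accessions and from GENCODE for 125, and 114 had none.

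All 16 libraries were fitted in edgeR 4.0.16 (R 4.3.3) with 1 mean per group, filterByExpr, TMM scaling and quasi-likelihood F tests. On simulated counts this fit called 44% of 2-fold changes in humanized livers, 57% in wild-type livers and 44% between strains under vehicle. Of 4-fold changes it called 97%, 100% and 96% in the same order. False calls made up 3.42%, 4.85% and 6.67% of the simulated calls. The simulation gave every gene the same biological coefficient of variation, 0.259, and held no library that stood apart. These rates may therefore differ from those in the real libraries. The fit left 12 residual degrees of freedom. The log2 change is given with its SE, and CPM are computed from the deposited counts. The precision of a level is limited by its count per library. Levels per kilobase used GENCODE transcript lengths. The 50-base windows and identities came from the same transcripts.

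The 9 genes, the lists and the tests were chosen with earlier results of these data known. All 9 genes are named, with up to 4 called genes of each list by smallest p and the 3 genes most like each member, without predicted genes. The planned protein identity was not run. Alternatives were DESeq2 1.42.0, other scalings, no filter, summed accessions, thinning, a replicate block, the 2 groups compared and single libraries left out. Leaving out both libraries that stood apart was chosen after seeing the data.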

Additional observations from a re-analysis of the deposited data

Results flagged for a closer look

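The TCPOBOP effect differed between the strains for 3 of the 9 genes by the test of the difference itself (edgeR, adjusted p under 0.05). All 3 had a lower effect in humanized livers, against 3.98% of all genes in that direction and 7.46% in either. Humanized minus wild-type, the difference was -1.97 for Gstt1, -2.70 for Gstt3 and -1.73 for Gstp2 on the log2 scale. The Gstp2 call was lost in 13 of 24 alternatives, with adjusted p from 0.0147 to 0.109, and it rests on few counts and on a transcript that shares most of its sequence with Gstp1.

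Gstp1 in humanized vehicle livers had 1 library, replicate 3, at 1056 CPM, far above the other 3, which lay between 611 and 678 CPM. The same library had the highest Gstp2 of its group, at 12.1 CPM. Chance sets apart a library in this way in about 1 of 20 groups. Each of the 9 genes was checked in each of the 4 groups, and no other library was set apart.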

How the results depend on the processing

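Across 25 alternatives (24 for the difference of effects, which needs all 4 groups), the wild-type rises of Gstt1, Gstt3 and Gstp2, the differences of effects for Gstt1 and Gstt3 and the strain difference of Gstk1 kept their direction and stayed past the threshold. The difference of effects for Gstp2 kept its direction and lost its call with thinning (-1.59), with a replicate block (-1.72) and without any of 11 libraries, its adjusted p being 0.0147 to 0.109 over all alternatives. The cause was not tested. Genes called over the whole table depended on the setting. In wild-type livers they numbered 1068 to 2190 with 1 library left out, lowest without wild-type TCPOBOP replicate 4, and 3046 with both libraries that stood apart left out, against 1691. In humanized livers they numbered 765 with DESeq2, 209 with a replicate block, 182 with only the groups compared, 74 to 960 with 1 library left out (humanized vehicle replicate 1, 3 or 4 gave 86, 109 or 74, humanized TCPOBOP replicate 1, 3 or 4 gave 960, 157 or 160, wild-type TCPOBOP replicate 1, 3 or 4 gave 216, 173 or 196 and wild-type vehicle replicate 2 gave 685) and 2137 without both libraries, against 325. For the difference of effects they numbered 1481 with DESeq2, 575 to 1782 with 1 library left out (humanized TCPOBOP replicate 1 gave 1782, humanized vehicle replicate 4 gave 630, wild-type TCPOBOP replicate 3 or 4 gave 618 or 575 and wild-type vehicle replicate 2 gave 1705) and 3140 without both, against 963. Under vehicle they numbered 621 to 3425 with 1 library left out, where humanized TCPOBOP replicate 1 gave 3425, humanized vehicle replicate 1, 3 or 4 gave 621, 770 or 794 and wild-type vehicle replicate 1 gave 1291, and 4505 without both, against 2074. Of the 9 genes, those called in wild-type livers numbered 5 without both libraries, when Gstk1 and Gsto1 were added as lower. In humanized livers they numbered 0 to 1 with 1 library left out and 1 without both, the gene being Gstk1. Under vehicle they numbered 3 with DESeq2 and 1 to 3 with 1 library left out. With library totals alone, 72 genes rose and 215 fell in humanized livers, against 171 and 154 with TMM, and the median log2 difference over all genes moved to -0.11. That scaling gave 295 higher and 928 lower for the difference of effects, against 449 and 514, with a median of -0.22, 1160 higher and 757 lower between strains, against 918 and 1156, and 1280 higher and 478 lower in wild-type livers, against 1046 and 645. Signs turned only for differences that were not called. In humanized livers Gstt1 had log2 differences of 0.0142 with DESeq2, 0.0143 with RLE scaling, 0.0101 without the filter, 0.0368 without both libraries and -0.167 to 0.0884 with 1 left out. Gstt2 had -0.0429 without both and -0.0343 to 0.556 with 1 left out, Gstp1 had -0.126 with library totals, -0.122 without both and -0.114 to 0.233 with 1 left out, and Gstp2 had -0.504 to 0.144 with 1 left out. Gstz1 had -0.0368 with library totals, and Mgst1 had -0.108 with library totals, -0.033 without both and -0.0384 to 0.136 with 1 left out. For the difference of effects, Gstp1 had -0.239 to 0.0995 with 1 left out, and Gstk1 had -0.0824 with library totals, -0.0681 without both and -0.0511 to 0.358 with 1 left out. Gsto1 had 0.0452 with DESeq2, 0.0446 with RLE scaling, 0.168 without both and -0.136 to 0.116 with 1 left out. Under vehicle, Gstt2 had 0.0167 with library totals, 0.117 without both and -0.214 to 0.106 with 1 left out. Gstt3 had 0.0986 without both and -0.553 to 0.0881 with 1 left out, and Gstp1 had -0.30 to 0.0300 with 1 left out. Same-numbered libraries correlated in their deviations at -0.244 to 0.0724 for humanized livers, 0.0998 to 0.581 for wild-type livers and -0.127 to 0.00529 between strains. In wild-type livers 3 of 4 pairs were over 0.1 and matched their own number best, and in the other comparisons none did. The labels give the numbers no meaning and not every pair was over 0.1, so the samples were not treated as paired. The block changed no other call of the 9 genes. Depth limits Gstp2 most, which had 20 to 50 counts in a wild-type vehicle library.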

Other observations

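Gstt1 has a further RefSeq entry, NM_001358778, whose counts were 0.860 to 0.900 of those of the entry used in humanized TCPOBOP, 0.892 to 0.918 in humanized vehicle, 0.859 to 0.867 in wild-type TCPOBOP and 0.855 to 0.874 in wild-type vehicle livers. Every humanized vehicle library was above every wild-type vehicle library in this proportion, while the gene itself was not called between these groups. The 2 Gstt3 entries had nearly equal counts in all libraries.

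Gstp1 is known as a male-predominant gene of mouse liver, and the labels do not give sex. Of 11 male-biased liver genes, 2 rose and none fell under TCPOBOP in humanized livers, where 1.32% of all genes rose. In wild-type livers 1 rose and 4 fell, against 8.1% and 4.99% of all genes. At an unadjusted p under 0.05 in humanized livers 5 were higher and none was lower, against 17.9% of all genes (edgeR). Under vehicle 1 of the 11 was higher in humanized than in wild-type livers and 2 were lower, against 7.11% and 8.95% of all genes. The 2 that were lower, Hsd3b5 and Slco1a1, were the 2 that rose in humanized livers. Both comparisons use the same humanized vehicle libraries, so these results are not independent of each other. Hsd3b5 averaged 13.9 CPM in humanized vehicle, 133 in humanized TCPOBOP and 144 in wild-type vehicle livers. Of 5 tested female-biased genes 2 rose and 2 fell in wild-type livers. Gstp1 itself was not called in either strain, with log2 differences of 0.03 in humanized and 0.13 in wild-type livers.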
